A study of Homo sapiens with 14 samples.

Results

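Solitary EED sites are peaks of EED in control cells that overlap no control peak of any other antibody of the study. The members were chosen by the deposited control peak lists alone: an EED peak had to share not a single base pair with a control peak of ubiquitylated histone H2A (uH2A, a rabbit and a mouse antibody), RING1A, RING1B, BMI1 or H3K27me3. By this rule 3669 of 13082 EED control peaks were solitary, 28.0% (exact 95% interval 27.3 to 28.8), and the other 9413 carried a peak of at least 1 other antibody. The cells were DU145, an established human prostate cancer line. Control cells carried a scramble construct, and knockdown cells a stable EED knockdown whose libraries all bear the construct label sh3; cells of both kinds had been selected with puromycin. Chromatin immunoprecipitation with sequencing (ChIP-seq) gave 1 library per antibody and cell line, so no value below has a replicate check and no test between the cell lines was possible. Intervals are given at 95%, reflect counting error alone and treat peaks as independent. Sequencing depth is unknown, and a missing peak means only that none was called.

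EED belongs to the core of PRC2, the Polycomb complex that methylates lysine 27 of histone H3. EED also recognises H3K27me3 itself, which helps the complex to spread and maintain the mark. In PRC1, the second Polycomb complex, RING1A or RING1B attaches ubiquitin to histone H2A, which gives uH2A, and BMI1 pairs with either enzyme and raises its activity. A Polycomb target in the textbook sense holds several of these proteins and marks together, and the solitary sites are the EED peaks at which no such company was called.

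By the description of cell culture and the way chromosomes are written, 2 sets of libraries can be told from each other. EED shares its set with both uH2A antibodies, and RING1A, RING1B, BMI1 and H3K27me3 form the other. Of the EED peaks, 25.8% met uH2A only, 9.20% met antibodies of the other set only and 36.9% met both sets. A rule with the uH2A antibodies alone would have called 37.2% of EED peaks solitary, and a rule with the other set alone 53.9%. The rabbit uH2A antibody alone kept 2436 EED peaks out of the solitary group, more than any other single antibody; RING1A did so for 558, mouse uH2A for 435, BMI1 for 272, H3K27me3 for 54 and RING1B for 9. The size of the group also changed when the other lists were cut: with each of the 6 cut to its 5155 tallest peaks, the number in the RING1B list, 61.8% of EED peaks were solitary. Among EED peaks at least as tall as the EED median it was 16.1%.

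Solitary peaks were low and short. Height is the signal of a peak as the caller wrote it. The median height of solitary peaks was 30.2 (quartiles 28.2 and 33.0) and that of the accompanied EED peaks 34.0 (30.2 and 39.6), a ratio of 0.889. The lowest solitary peak had a height of 20 and the tallest 58.5, while accompanied peaks ranged from 22 to 956. Of the accompanied peaks, 349 (3.71%) were taller than the tallest solitary one. A height above 40 was reached by 118 solitary peaks, 3.22% (2.67 to 3.84), and by 24% (23.1 to 24.9) of accompanied peaks. The 2 groups overlapped from a height of 22 to 58.5, and only accompanied peaks were found above that. The same control lists chose the members, so heights, lengths and gaps are given as a description, with no test.

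The median length was 100 bp for solitary and 150 bp for accompanied peaks. The shortest length in the list, 75 bp, was that of 32.1% (30.6 to 33.6) of solitary peaks and 15.7% (15.0 to 16.5) of accompanied ones. Lengths above 200 bp were rare among solitary peaks, at 3.84%, and made up 25.8% of accompanied peaks. Solitary peaks covered 430.0 kb in all, 20.2% of the length covered by EED peaks. Short peaks meet another peak less easily, so the rule itself favours them, and the difference in length is given as a description. On each of the 22 autosomes the median of solitary peaks was below that of accompanied peaks, in height (ratios 0.821 to 0.933) and in length.

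**Figure D1:**
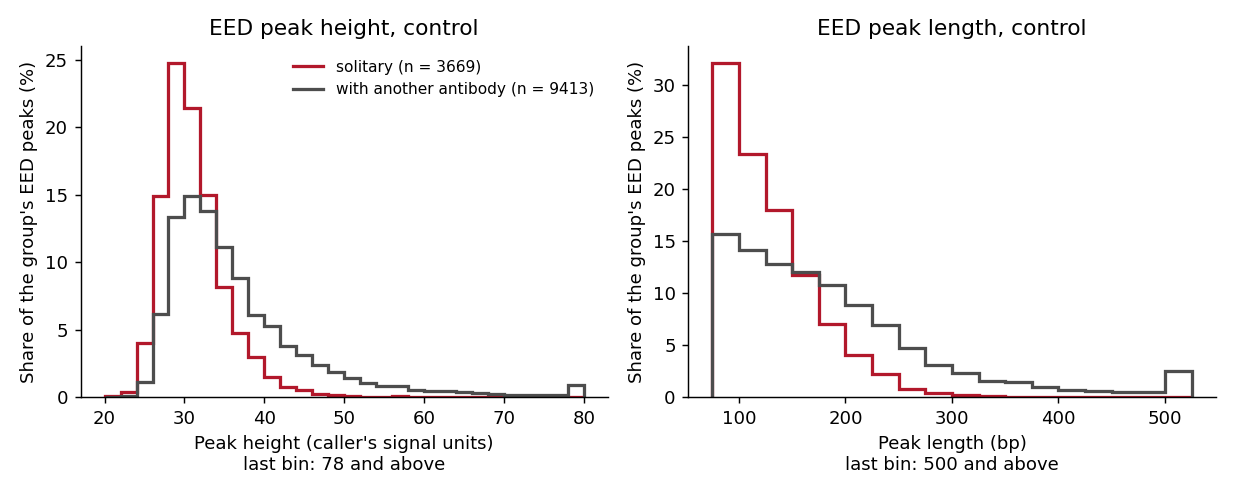
Share of EED control peaks by height (left, signal units of the caller, bins of equal width) and length (right, bp), for solitary and accompanied peaks; the last bin holds all larger values. Solitary peaks crowd at the low and short end (medians 30.2 and 100 bp) and have no tail beyond a height of 58.5 or a length of 425 bp.

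EED peaks formed a gradient in which the solitary ones were at the lower end. Median height was 30.2 with no other antibody, 32.6 with exactly 1, 33.2 with 2, 34.4 with 3, 38.0 with 4, 45.1 with 5 and 54.2 with all 6. Median length went from 100 bp to 125, 150, 175, 200, 250 and 300 bp over the same groups. Peaks at the edge of the rule were alike: the 191 solitary peaks that lay 25 bp or less from another antibody's peak had a median height of 30.2, and the 202 accompanied peaks whose longest overlap was 25 bp had 30.4, with a median length of 100 bp in both.

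Most solitary sites had a control peak of another antibody within 10 kb, in lists that are dense. The median gap to the nearest control peak of any other antibody was 4850 bp (quartiles 1.00 and 21.6 kb), and 926 solitary peaks (25.2%, 23.8 to 26.7) had one within 1 kb. Within 10 kb there were 2307 (62.9%, 61.3 to 64.4) and within 100 kb 3402 (92.7%, 91.8 to 93.5), which left 267 more isolated than that. Among autosomes, peaks of the other antibodies numbered from 12.4 per Mb on chromosome 13 to 165.6 per Mb on chromosome 14. Gaps from random positions were not computed. Whether solitary peaks lay closer to other peaks than list density alone would give was therefore not tested. The rule lets a solitary peak touch another peak, at a gap of 0, but not overlap it. The median gap was 36075 bp with lists of equal length, 8450 bp with uH2A alone in the rule, 9850 bp when sites within 1 kb of another peak were left out and 3025 bp when an overlap had to cover 50% of the EED peak.

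RING1A, which has the longest list, was the nearest antibody for 38.1% of solitary peaks, with a median gap of 11.95 kb. Mouse uH2A followed with a median gap of 20.8 kb, rabbit uH2A with 24.9 kb and BMI1 with 55.6 kb. H3K27me3, the mark of PRC2 itself, was farther off although its list is longer than those of BMI1 and of either uH2A antibody: the median gap was 177 kb, and 8.20% (7.34 to 9.14) of solitary peaks had an H3K27me3 peak within 10 kb. RING1B, with the shortest list, was the farthest, with a median gap of 1429 kb. EED peaks that had company, but not the antibody in question, lay closer to that antibody for each of the 6. Their median gap was 93.0 kb to H3K27me3, 3.96 kb to RING1A and 12 kb to rabbit uH2A. Windows of 100 kb with at least 5 kb of control H3K27me3 peaks held 131 solitary peaks, 3.57% (2.99 to 4.22), and 11.6% (10.9 to 12.2) of accompanied ones. Control H3K27me3 peaks are part of the rule, which favours this difference, so the shares are a description.

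**Figure D2:**
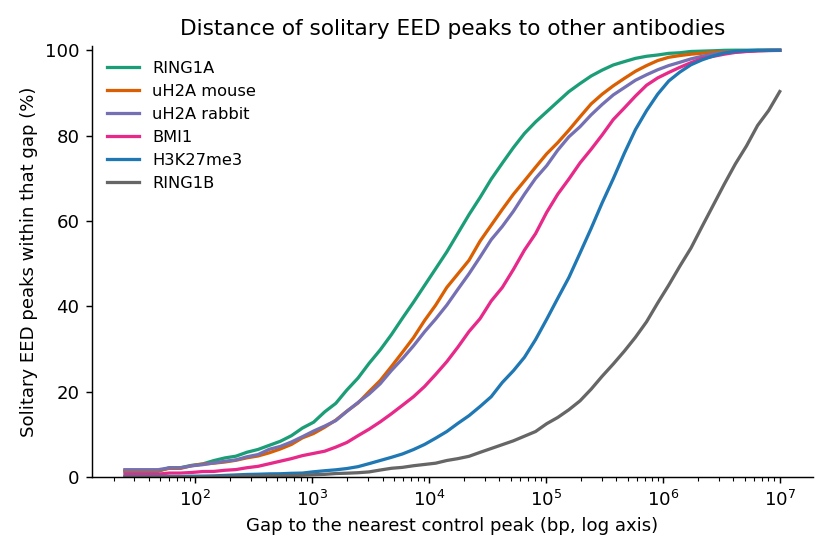
Share of the 3669 solitary EED peaks (vertical axis, %) with a control peak of each antibody within a given gap (horizontal axis, bp, log scale). At 10 kb the RING1A curve is the highest, with 46.6% of solitary peaks, and those of H3K27me3 (8.20%) and RING1B (3.19%) are the lowest.

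Solitary sites were also apart from other EED peaks. The nearest EED control peak was a median of 35.4 kb away, against 10.1 kb for accompanied peaks. Another EED peak lay within 1 kb of 266 solitary peaks (7.25%), and for 165 of all solitary peaks (4.50%) an accompanied EED peak lay that close. Windows of 100 kb with a solitary peak numbered 3066, of which 2571 held 1 such peak, 404 held 2 and 91 held 3 or more. The most in any window was 5, in 3 windows. On chromosome 5 these were 2600001 to 2700000, with 8 EED peaks in all, and 3300001 to 3400000, with 9. On chromosome 9 it was 35700001 to 35800000, with 7. Of the 11 windows with 4 solitary peaks, the first in genome order were also near the start of chromosome 5, at 3800001 to 3900000 and 6200001 to 6300000. None of the solitary peaks in these 5 windows had an EED peak in knockdown cells, and 0.790% of all solitary peaks did.

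The share of EED peaks that were solitary differed between chromosomes. It was lowest on chromosomes 21 (15.1%, 12.1 to 18.5), 22 (16.1%, 12.6 to 20.2) and 14 (20.4%, 18.2 to 22.7), and highest among autosomes on chromosomes 3 (44.9%, 39.7 to 50.2) and 13 (43.9%, 35.5 to 52.5). Across 22 autosomes Spearman's rho was -0.77 and Pearson's r -0.79 between this share and the number of peaks of the 6 other antibodies per Mb. The points share the same lists, and the rule itself uses those peaks, so the relation is given as a description. EED height moved with the share as well: the median of all EED peaks was 27.2 on chromosome 13 and 30.1 on chromosome 3, against 35.3 on chromosome 14 and 36.2 on chromosome 21. Its part in these shares was not tested. In number per Mb, solitary peaks went the same way as the other lists (rho 0.84), from 0.530 on chromosome 13 to 2.44 on chromosome 14. That is a 4.61-fold range, against 9.93-fold for all EED peaks and 13.4-fold for the other antibodies. Chromosome X had 9 EED peaks, of which 7 were solitary, and chromosome Y had 18, of which 4 were. Solitary peaks on these chromosomes were low, with medians of 23 and 22.7. The lowest height in the EED list differed by chromosome, from 20 on chromosome Y to 26 on chromosomes 17 and 21, and chromosome 13 had the lowest solitary median of the autosomes, 25.2.

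The tallest solitary peaks gathered on a few chromosomes. Chromosome 14 had 7.14% of all solitary and 10.9% of all accompanied peaks, and both kinds were taller there. Its medians were 32.0 for solitary and 36.9 for accompanied peaks, against 30.2 and 34.0 over all chromosomes. Coordinates are hg19, and regions are named by position alone. On chromosome 14 lay 6 of the 10 tallest: chr14:51104476-51104675 (height 58.5), chr14:47909176-47909400 (57.5), chr14:32433726-32433950 (55.2), chr14:106846826-106847125 (51.0), chr14:51488251-51488450 (49.7) and chr14:32402026-32402175 (49.2). Chromosome 18 had chr18:33526226-33526450 and chr18:34242151-34242325, with a height of 50.6 each. The remaining 2 were chr16:71020876-71021025 (49.6) and chr9:123266026-123266225 (57.0). The last of these was the most isolated of the 10, with 75850 bp to the nearest peak of another antibody, RING1A. Both peaks near 32.4 Mb of chromosome 14 were 350 bp from a BMI1 peak, and the rest of the 10 were 800 to 7000 bp from another antibody's peak. The peak at 106846826 lay only 50 bp from another EED peak.

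None of these 10 had an EED peak in knockdown cells, the nearest being 0.9 kb from chr14:51488251-51488450. Of all solitary peaks 0.790% had one, as had 2.21% of those in the tallest of 4 height classes. A knockdown peak of another antibody lay on 4.77% of all solitary peaks and on 10.3% of that class. At 4 of the 10 such a peak was called: BMI1 at 47909176 and at 32433726, rabbit uH2A at 106846826 and mouse uH2A at 33526226. The first 3 of these 4 are also the tallest solitary sites with a knockdown peak of another antibody and none of EED.

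The longest and the most isolated solitary peaks were other sites. The longest, chr3:7305126-7305550, measured 425 bp, with a height of 33.2 and 874550 bp to the nearest other antibody. Next came chr6:66481876-66482250 with 375 bp (height 39.6), chr12:40880401-40880750 with 350 bp (36.6), and chr12:129591176-129591500 (40.2) and chr18:5122126-5122450 (39.2) with 325 bp each. All 5 were above the upper quartile of solitary heights, 33.0. The 5 most isolated peaks were 75 to 125 bp long and 24 to 31.2 high. The first was chr4:179874426-179874500, with 2287450 bp to the nearest peak of another antibody. It was followed by chr13:89539526-89539650 (1776650 bp), chr13:89578376-89578475 (1737825 bp), chrX:78773276-78773400 (1585450 bp) and chr4:97663876-97663975 (1517400 bp). No knockdown peak of any antibody was on these 10 sites, and 5.34% of all solitary peaks had one.

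Solitary EED sites were nearly all without an EED peak in knockdown cells, and less often kept than other EED peaks. The knockdown lists did not enter the rule. The EED list fell from 13082 to 1372 peaks as a whole. Of 3669 solitary peaks, 29 overlapped a peak of the EED knockdown list and were kept, 0.790% (exact interval 0.530 to 1.13). The background over all EED control peaks was 5.79%. Accompanied peaks were kept in 728 of 9413 cases, 7.73% (7.20 to 8.29), a difference of solitary minus accompanied of -6.94 percentage points (Newcombe interval -7.55 to -6.32). The share kept was 6.94% (6.37 to 7.53) for the 7599 EED peaks with uH2A and no H3K27me3 and 21.9% (18.9 to 25.2) for the 707 with H3K27me3.

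With the number of other antibodies, the share kept went from 0.790% at solitary sites to 2.21% with 1 antibody, 4.03% with 2, 7.01% with 3, 16.2% with 4, 42.3% with 5 and 68.5% (59.0 to 77.0) with 6. The share of solitary peaks kept was more than 1.5 times as high under other rules: 1.77% with the uH2A antibodies alone in the rule, 1.48% with the other library set alone, 1.51% with lists of equal length and 1.57% among EED peaks at least as tall as the EED median. With an overlap of at least 50% of the EED peak required, the difference from accompanied peaks was -3.95 points, and with lists of equal length -11.2 points. Against peaks with exactly 1 other antibody the difference was -1.42 points (-1.99 to -0.871). At the edge of the rule the kept counts were too small to tell whether such a difference was there. Of the 191 solitary peaks 25 bp or less from another antibody's peak, 1 was kept (0.524%). Among the 202 accompanied peaks whose longest overlap was 25 bp it was also 1 (0.495%). Set against peaks with a single named antibody, the differences were as follows. The solitary share minus that of EED peaks with BMI1 alone (17 of 272 kept) was -5.46 points (-9.00 to -3.12), and minus that with rabbit uH2A alone (55 of 2436) it was -1.47 points (-2.18 to -0.846). It could not be told from that with RING1A alone (3 of 558 kept, 0.538%), the difference being 0.253 points (-0.806 to 0.746). The intervals also held 0 for mouse uH2A alone (7 of 435, -2.51 to 0.0768), H3K27me3 alone (1 of 54, -8.98 to 0.501) and RING1B alone (0 of 9, -29.1 to 1.13).

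**Figure D3:**
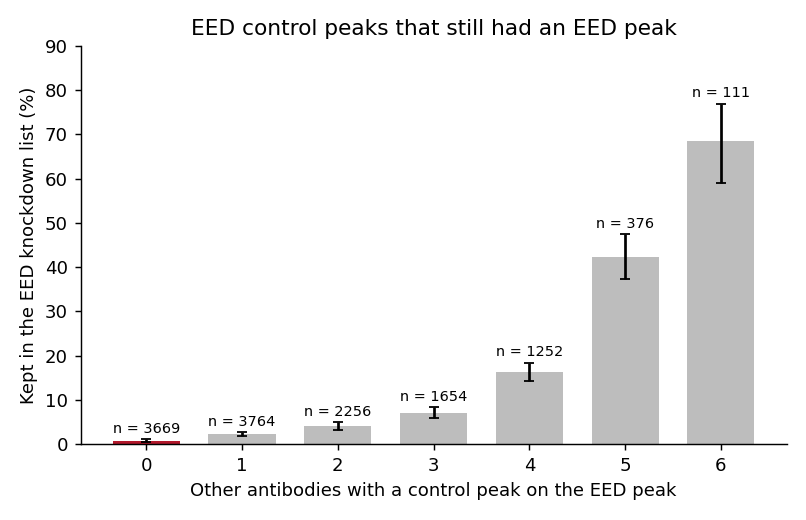
Share of EED control peaks with an EED knockdown peak (vertical axis, %), by the number of other antibodies with a control peak on them (horizontal axis); bars are shares, lines exact 95% intervals, and n the peaks per group. The solitary group (0.790% of 3669) is the lowest of the 7.

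Height and length moved with the share kept, and the difference was therefore also taken within classes. In the lowest of 4 height classes (20.0 to 29.3), 7 of 1438 solitary and 40 of 1686 accompanied peaks were kept, a difference of -1.89 points (-2.76 to -1.08). It was -2.02 points (-2.82 to -1.20) in the second class and -2.40 (-3.40 to -1.15) in the third. In the tallest class 6 of 272 solitary peaks were kept, 2.21%, and 17.6% of accompanied ones. That class reaches far higher among accompanied peaks; up to the height of the tallest solitary peak it held 2721 accompanied peaks, of which 343 were kept, 12.6% (11.4 to 13.9). Within the 4 classes of length the difference was also below 0 in each, from -0.911 points (-1.70 to -0.139) at 75 bp to -12.6 (-13.8 to -11.0) at 175 bp and longer. Weighted to the heights and lengths of the solitary peaks over 16 classes of both, 3.48% of accompanied peaks were kept, against 0.790%.

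**Figure D4:**
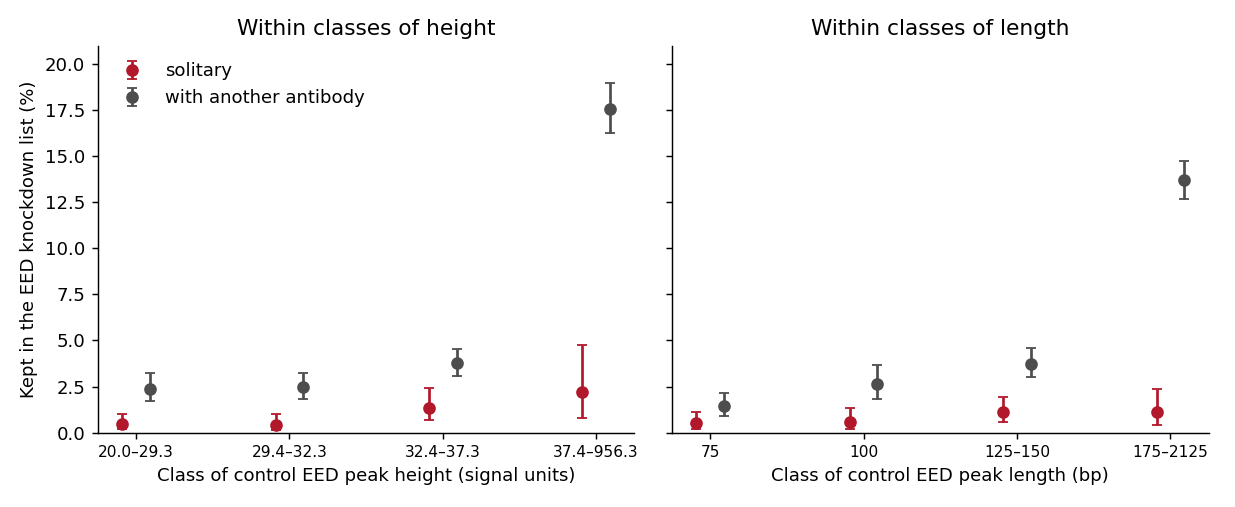
Share of EED control peaks kept in the EED knockdown list (vertical axis, %) within classes of control height (left, signal units) and length (right, bp), for solitary and accompanied peaks; points are shares and lines exact 95% intervals. Solitary points lie below accompanied ones in all 8 classes, with differences of -0.911 to -15.4 percentage points.

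The 29 kept solitary sites were somewhat taller than the 3640 lost ones, with a median control height of 33.4 (range 26.9 to 44.4) against 30.2, and a median length of 125 against 100 bp. Their knockdown peaks had a median height of 34.8 (27 to 55.8), close to the median of all EED knockdown peaks (35.0). At 21 of the 29 the knockdown height was above the control height, although heights were not normalised between libraries. Being kept required a called knockdown peak, and the tallest overlapping one was used, which favours this. The same count for kept accompanied peaks is not given here. Kept sites lay on 13 chromosomes. Chromosome 14 had 6 of them and 7.14% of all solitary peaks, and chromosome 5 had 4 and 7.88%. Chromosomes 4 and 18 each had 3 kept sites and 3.68% of all solitary peaks. The 5 tallest were chr18:35480701-35480875 (44.4), chr10:95462251-95462425 (44.0), chr14:47746201-47746350 (42.9), chr16:71040101-71040300 (42.6) and chr1:145045076-145045150 (40.2). The site on chromosome 10 was 98500 bp from any other antibody's control peak and 639.5 kb from another EED peak. Knockdown peaks of rabbit uH2A and BMI1 were also called at the chromosome 18 site, and of RING1A and BMI1 at the chromosome 14 site.

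Within the group, the share kept was taken at 4 distances from other antibodies. Of solitary peaks with another antibody within 1 kb, 7 of 926 were kept (0.756%, 0.304 to 1.55), of those 1 to 10 kb away 14 of 1381 (1.01%, 0.555 to 1.70), of those 10 to 100 kb away 7 of 1095 (0.639%, 0.257 to 1.31), and beyond 100 kb 1 of 267 (0.375%, 0.00948 to 2.07). These intervals overlap one another. In all, 48 solitary peaks (1.31%) had an EED knockdown peak on them or within 1 kb, and 128 (3.49%) within 10 kb. Among accompanied peaks the shares were 10.4% and 16.8%. These shares include the 29 solitary and 728 accompanied peaks that were kept.

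Knockdown peaks of the 6 other antibodies were called at few solitary sites. Any of them overlapped 175 sites, 4.77% (4.10 to 5.51), where the background of all EED peaks was 39.5%. The share was 8.19% with uH2A alone in the rule, 28.3% with the other set alone and 15.8% with lists of equal length. With EED counted as well it was 196 sites, 5.34% (4.64 to 6.12), against 40.4%. Of the 175 sites, 162 had 1 such antibody, 9 had 2, 3 had 3 and 1 had 4. Of the 29 kept sites, 8 were among them.

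Rabbit uH2A, which has the longest knockdown list (11327 peaks), was the most frequent, and BMI1 came next. Rabbit uH2A knockdown peaks lay on 119 solitary sites, 3.24% (2.69 to 3.87, background 30.6%), and mouse uH2A on 21, 0.572% (0.355 to 0.874, background 9.08%). BMI1 was called at 34 sites, 0.927% (0.643 to 1.29, background 9.45%), and RING1A at 9, 0.245% (0.112 to 0.465, background 3.72%). RING1B was called at none of 3669, which allows a share of up to 0.0818% (background 0.971%). H3K27me3 was called at 10, 0.273% (0.131 to 0.501, background 3.77%). These backgrounds include EED peaks that already carried the antibody in control cells, which solitary sites by rule did not.

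The fairer comparison is with accompanied EED peaks that lacked the antibody in question in control cells. Among 2779 such peaks without rabbit uH2A, 139 had a knockdown peak of it, 5.00%, and the difference of solitary minus accompanied was -1.76 points (-2.78 to -0.783). The solitary share was also lower for mouse uH2A (-1.29 points, -1.75 to -0.837, 1.86% of accompanied peaks), RING1A (-1.60, -2.04 to -1.19, 1.84%) and BMI1 (-1.26, -1.74 to -0.754, 2.18%). The widest gap was for H3K27me3, which was called in knockdown cells at 3.53% of 8706 accompanied peaks that had lacked it, a difference of -3.25 points (-3.68 to -2.82). For RING1B, with 3 of 8730, the interval held 0 (-0.101 to 0.0727). Height and length were not matched here.

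**Figure D5:**
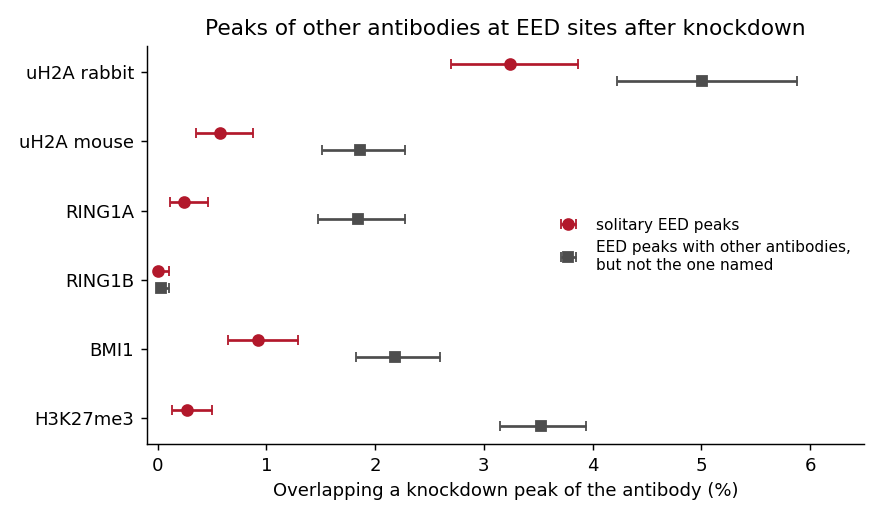
Share of EED control peaks that overlap a knockdown peak of each other antibody (horizontal axis, %), for solitary peaks and for accompanied peaks without a control peak of that antibody; points are shares and lines exact 95% intervals. Solitary shares are lower for each of the 6 antibodies, but for RING1B (0% and 0.0344%) the interval of the difference holds 0. Rabbit uH2A is the highest in both groups (3.24% and 5.00%).

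Where rabbit uH2A was called on a solitary site after knockdown, 100 of the 119 sites met knockdown peaks that overlapped no rabbit uH2A control peak, and the other 19 met peaks that did. The rule favours this, since no solitary site overlapped a rabbit uH2A control peak. The same share over all rabbit uH2A knockdown peaks is not given here. The median gap from these 119 sites to a rabbit uH2A control peak was 6775 bp, and 44 had one within 1 kb. Over all 3669 solitary peaks the median gap was 24.9 kb, and 10.6% had one within 1 kb. The knockdown peaks were ordinary in height, with a median of 32.1 against 35.3 for that list. For BMI1 the median gap was 2988 bp (55.6 kb over all solitary peaks), with a knockdown height of 58.0 against 63.3. Sites nearer to other antibodies had such peaks more often: 80 of 926 solitary peaks (8.64%) with a control peak within 1 kb, 4.20% at 1 to 10 kb, 2.65% at 10 to 100 kb and 3.00% beyond.

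Regions that give very tall peaks with several antibodies held few solitary sites. Windows of 100 kb, with their neighbours, in which at least 2 other antibodies had a control peak over 10 times the median height of their list, held 12 solitary peaks (0.327%) and 1.38% of accompanied peaks. The rule uses the same control lists, which favours a lower solitary share in such windows, so these shares are a description. None of the 12 was kept. Outside these windows 0.793% of solitary and 7.23% of accompanied peaks were kept.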

How the data were processed

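ChIP-seq peak lists of 14 libraries (7 antibodies in control and EED knockdown DU145 cells) were used as deposited. Libraries were made from 10 to 20 ng of DNA and read for 40 nt, per the labels' protocols. Per the submitters' processing notes, Bowtie and the hg19 build were used. HPeak is the caller named in the deposited lists, where each peak has a position in steps of 25 bp, a height and a score. Height is a signal value and was used only to describe, rank and select peaks within a list; the deposited score was not used. The use of input and the scaling of signals: not given in the sources used here. Depth is unknown.

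Chromosome prefixes were removed, and 23 and 24 in the EED and uH2A lists were read as X and Y: of the control peaks of these 3 antibodies, 43 of 49 on 24 overlapped a Y peak of the other 4 antibodies and 0 an X peak, while 12 of 134 on 23 (8.96%) overlapped an X peak and 0 a Y peak. The reading of 23 as X thus rests on few overlaps. Overlap meant at least 1 bp. Gaps count the bases between peaks. Shares have exact Clopper-Pearson 95% intervals and differences Newcombe intervals, computed with Python 3.11.15, numpy 2.4.6, pandas 2.3.3 and scipy 1.17.1; figures used matplotlib 3.10.9. A count of 0 was given the limit of 3 counts. Overlaps and gaps were tested on simulated data against a direct count, and 0 of 2400 were wrong. Peaks were not tested as replicates, and with 1 library per group no p-value is given. Regions named are the 10 tallest solitary peaks, the 5 tallest kept, the 5 longest, the 5 farthest from other antibodies, the 3 tallest with only another antibody's knockdown peak and the 5 windows of 100 kb with the most, ties by position. The members, lists and comparisons were chosen with earlier results of these data known. Genes and sequences at the sites were not analysed here.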

Additional observations from a re-analysis of the deposited data

How the results depend on the processing

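The main results were recomputed under up to 11 alternatives. They were the solitary share (28.0%), the ratios of median height (0.889) and length (0.667) to accompanied peaks, and the share kept (0.790%). The others were the difference in share kept (-6.94 points), the share with another antibody's knockdown peak (4.77%) and the median gap (4850 bp). Of 73 values, 35 stayed within the interval of the main value and 38 moved. A reversal was defined for the kept difference alone, and 0 of its 11 values reversed. Intervals of the ratios reflect the solitary median only, and that of the length ratio was a single value, 0.667. The kept difference was below 0 under each, from -11.2 to -1.42 points. Requiring an overlap of 50% gave a share of 32.4%, a kept difference of -3.95 and a gap of 3025 bp. Counting peaks within 1000 bp as company gave 20.97%, a height ratio of 0.904, a kept difference of -8.91 and 9850 bp. EED peaks at or above the median height gave 16.1%, ratios of 0.917 and 0.75, 1.57% kept, a difference of -9.70, 6.93% with another antibody and 3938 bp. Merging peaks gave 28.96% and 5725 bp. With uH2A alone in the rule the values were 37.2%, a height ratio of 0.884, 1.77% kept, 8.19% and 8450 bp. With the other library set alone they were 53.9%, ratios of 0.913 and 0.714, 1.48% kept, a difference of -9.34, 28.3% and 5350 bp. Lists of equal length gave 61.8%, ratios of 0.846 and 0.714, 1.51% kept, -11.2, 15.8% and 36075 bp. Comparing with exactly 1 other antibody, an alternative chosen after seeing the data, gave ratios of 0.925 and 0.8 and a difference of -1.42. Autosomes only, leaving out peaks of height 0, and leaving out high-signal windows, also chosen after seeing the data, moved none of these values beyond the interval. The cause of these shifts was not tested.

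No paired analysis was possible because each antibody had 1 library per cell line. For the same reason no library was left out, and the knockdown cannot be told apart from differences between 2 libraries in depth or enrichment. Peak lists hold no values below the caller's threshold, and a lost peak is one below that threshold. The EED list and both uH2A lists come from a different library set than the other 4 antibodies, and solitary status joins both sets.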

Other observations

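EED peaks without company were also called in knockdown cells. Of 1372 EED knockdown peaks, 484 (35.3%, exact 95% interval 32.7 to 37.9) overlapped no knockdown peak of the 6 other antibodies. They were low and short like the solitary control peaks, with a median height of 32.8 and a median length of 100 bp, against 38.0 and 150 bp for the other 888, and the tallest reached 58.3 where the others reached 1752. Of the 484, 348 (71.9%, 67.7 to 75.9) overlapped no EED control peak, where the share over all EED knockdown peaks was 42.9% (588 of 1372), 114 (23.6%) lay on an accompanied and 22 (4.55%) on a solitary one. Of the 348, 185 (53.2%) overlapped no control peak of any antibody. The matching share of all 588 EED knockdown peaks on no EED control peak is not given here. The 22 were 75.9% (56.5 to 89.7) of the 29 knockdown peaks that lay on solitary control peaks.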
